A study of Mus musculus with 11 samples.

Results

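Collagen chain genes were followed in lung mesenchymal cells of C57BL6 mice after pneumonectomy (PNX, removal of lung tissue) or sham surgery. They were taken as every gene whose symbol is Col, a number, a and a number, which gave 44 chains among the 24411 genes counted. Of these, 43 reached 1 CPM (a count scaled to a common library total) in at least 3 of 11 libraries: 11 fibrillar chains, 6 basement membrane chains, 9 fibril-associated chains (FACIT) and 17 others. Col26a1 lay just outside, with 2 libraries at 1 CPM. Col9a1, Col22a1 and Col9a3 lay just inside, with 3 each. Cells were sorted from the lung as negative for EpCAM, CD45 and CD31, and RNA was sequenced in bulk from PNX day 7 (n = 3), sham day 7 (n = 3), PNX day 14 (n = 3) and sham day 14 (n = 2) after surgery. The labels do not say whether a library came from 1 animal or from a pool, so p-values measure the spread between libraries, which may be technical in part.

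Collagens are the main structural proteins of connective tissue. Their chains wind into helices that are cut, assembled and cross-linked outside the cell. Fibrillar collagens form the load-bearing fibrils of the alveolar wall and the airway sheath, type IV collagens form the sheet beneath epithelium and endothelium, and FACIT collagens sit on the surface of fibrils. In the lung, fibroblasts make most of the fibrillar chains, and a chain is usually co-expressed with its partners in the same helix.

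Total counts ran between 2963341 and 7614122 in PNX day 7, between 4082935 and 8362119 in sham day 7, between 4733716 and 7895688 in PNX day 14, and were 2539628 and 9008592 in sham day 14. The summed level of 8 mesenchymal markers lay between 3198 and 6273 CPM in every library, and Pdgfra, a receptor that marks lung fibroblasts, was detected in all of them. Epithelial markers were present as well, at a summed 214 to 17968 CPM, although cells positive for EpCAM were sorted away. So were 10 endothelial markers, although cells positive for CD31 were sorted away. Their sum was 1112, 501 and 140 CPM in PNX day 7 libraries, against 268, 798 and 254 CPM in sham day 7 libraries. The part of endothelial RNA in the collagen values was not tested. Counts on 1455 olfactory and vomeronasal receptor genes, which lung cells are not known to use, averaged 0.0618 to 1.10 CPM per gene. They were highest in the first sham library of day 14 and in the second PNX and the second sham library of day 7, called the 3 libraries of highest background below. All levels below are CPM scaled by TMM (the trimmed mean of M values, which aligns most genes across libraries). In bulk RNA, fewer cells of a type and less RNA per cell cannot be told apart.

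Promoter windows are shown for the 2 chains of highest level per length and for Col4a1, Col4a2 and Col4a4, type IV genes that each lie head to head with another. Those of Col4a3, Col4a5 and Col4a6 are not shown. They run 250 bases before to 50 after the RefSeq start (GRCm38.p6), 5′ to 3′ on the gene's strand. The windows are chr6:4505368-4505667 (+) for Col1a2, chr1:45311288-45311587 (+) for Col3a1, chr8:11312777-11313076 (-) for Col4a1, chr8:11312555-11312854 (+) for Col4a2 and chr1:82586800-82587099 (-) for Col4a4. Capitals mark TATAAA (the TATA word), CCAAT and GGGCGG (the GC box), each searched on both strands, and no match overlapped another.
Col1a2: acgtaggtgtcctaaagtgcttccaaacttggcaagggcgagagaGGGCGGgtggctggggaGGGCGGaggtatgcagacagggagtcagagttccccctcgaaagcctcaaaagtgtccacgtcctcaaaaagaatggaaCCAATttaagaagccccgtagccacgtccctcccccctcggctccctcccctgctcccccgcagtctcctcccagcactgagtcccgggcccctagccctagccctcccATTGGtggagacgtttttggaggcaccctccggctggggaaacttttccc
Col3a1: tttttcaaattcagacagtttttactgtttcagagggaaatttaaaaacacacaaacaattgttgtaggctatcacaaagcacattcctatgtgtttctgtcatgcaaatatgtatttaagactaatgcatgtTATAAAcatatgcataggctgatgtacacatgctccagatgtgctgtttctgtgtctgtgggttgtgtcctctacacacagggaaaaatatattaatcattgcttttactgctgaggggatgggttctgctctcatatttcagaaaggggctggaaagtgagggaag
Col4a1: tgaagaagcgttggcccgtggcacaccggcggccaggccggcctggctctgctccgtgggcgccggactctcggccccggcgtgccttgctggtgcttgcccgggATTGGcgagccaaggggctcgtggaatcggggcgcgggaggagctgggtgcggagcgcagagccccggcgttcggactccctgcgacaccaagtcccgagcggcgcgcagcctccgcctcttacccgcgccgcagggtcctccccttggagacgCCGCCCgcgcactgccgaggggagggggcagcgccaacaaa
Col4a2: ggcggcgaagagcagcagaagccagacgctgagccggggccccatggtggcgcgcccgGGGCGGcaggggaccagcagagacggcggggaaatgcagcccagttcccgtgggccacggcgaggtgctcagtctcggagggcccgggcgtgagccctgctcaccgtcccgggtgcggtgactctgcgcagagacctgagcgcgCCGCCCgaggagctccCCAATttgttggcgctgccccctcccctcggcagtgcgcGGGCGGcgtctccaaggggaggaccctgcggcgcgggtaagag
Col4a4: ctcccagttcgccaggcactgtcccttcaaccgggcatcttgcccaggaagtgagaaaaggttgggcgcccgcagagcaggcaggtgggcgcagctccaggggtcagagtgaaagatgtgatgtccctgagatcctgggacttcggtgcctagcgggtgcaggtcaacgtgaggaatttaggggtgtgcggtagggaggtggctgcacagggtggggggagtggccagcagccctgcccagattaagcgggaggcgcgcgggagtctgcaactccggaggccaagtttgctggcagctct

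The Col1a2 window held 2 CCAAT and 2 GGGCGG matches, whereas that of Col3a1 held 1 TATAAA match only. Col4a1 and Col4a2 are transcribed away from each other, and their windows share 78 bases. The Col4a1 window had 1 CCAAT and 1 GGGCGG match and that of Col4a2 had 1 CCAAT and 3 GGGCGG matches. The GGGCGG match of Col4a1 lies in the shared bases and is also 1 of the 3 of Col4a2. No match to the 3 words lay in the Col4a4 window, which also covers the start of Col4a3, annotated 71 bases away in GENCODE M21. Among all 32851 windows, TATAAA was in 13.6%, CCAAT in 37.4% and GGGCGG in 35.7%. Among 38 windows of 35 collagen genes they were in 5, 13 and 23 windows. These matches describe the letters and not binding.

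Levels per length of transcript were led by the interstitial fibril chains. Col3a1 averaged 686 CPM per kb over the 11 libraries, Col1a2 498 and Col1a1 381. These encode the chains of type III and type I collagen, and together they made 62.8% to 78.4% of all collagen CPM in a library. Col6a1 followed at 176 CPM per kb and Col6a2 at 95.1, both chains of the beaded filaments around cells. Col5a2, whose product helps set fibril diameter, had 55.8 CPM per kb, and Col14a1, the highest FACIT chain, had 39.4. The type IV chains Col4a2 and Col4a1 lay close together at 21.3 and 21.2 CPM per kb, and Col4a3 averaged 17.2. The lowest reported chain was Col22a1, a FACIT chain of tissue junctions, with 0.110 CPM per kb.

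**Figure D1:**
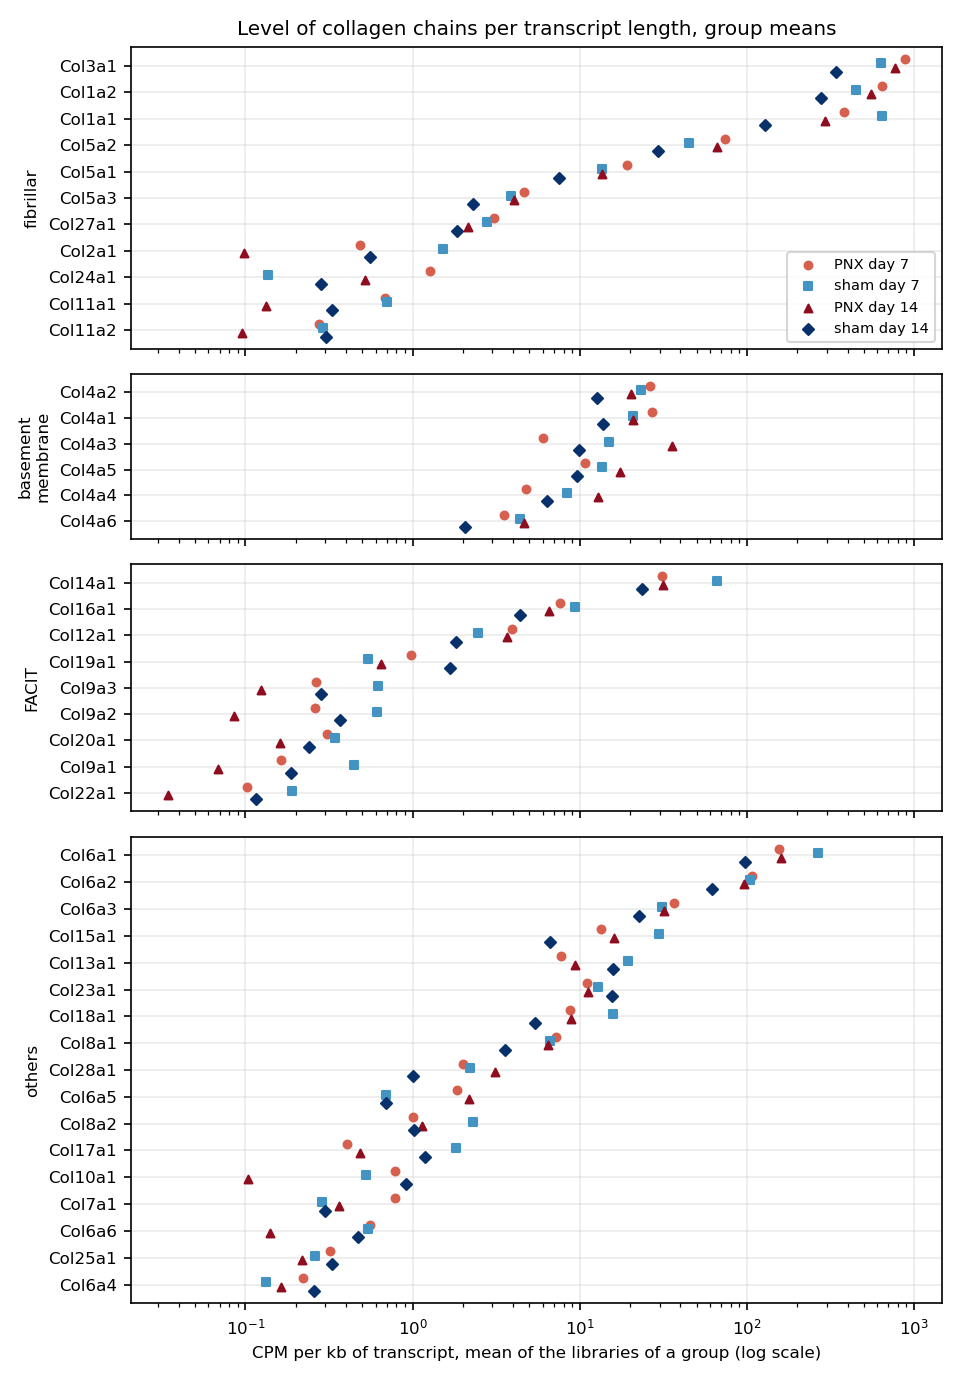
Group means of the 43 chains in CPM per kb of transcript (log axis), in panels by class, with PNX day 7 circles, sham day 7 squares, PNX day 14 triangles and sham day 14 diamonds. Col3a1, Col1a2 and Col1a1 stand above all others, and sham day 14 has the lowest group mean for 20 of the 25 chains with a mean of 10 CPM or more.

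Summed collagen was 13572, 15008 and 13218 CPM in PNX day 7 libraries, against 7624, 14787 and 18604 CPM in sham day 7 libraries. At day 14 it was 13637, 13400 and 10309 CPM after PNX, against 3966 and 8486 CPM after sham surgery. PNX libraries thus lay within a narrow band on both days, sham libraries at day 7 spread on both sides of it, and both sham libraries at day 14 lay under it. Of the 25 chains with a mean of 10 CPM or more, 18 were lowest in sham day 14 replicate 1, which also has the fewest counts and the highest receptor gene counts. Summed mesenchymal (3198 CPM), smooth muscle (1538 CPM), mesothelial (613 CPM) and pericyte (158 CPM) markers were lowest in this library too. Its alveolar fibroblast sum, 6292 CPM, was not the lowest. The part of depth, background and cell types in the low collagen values was not tested.

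No chain passed an adjusted p of 0.05 in any of the 6 comparisons by edgeR's quasi-likelihood test with Benjamini-Hochberg adjustment over 16011 genes, in which 42 of the 43 chains were tested (Col9a1 was too low). Of all genes tested, 0.0375% passed between PNX and sham libraries of day 7 and 0.00625% between those of day 14. Averaged over the days, 0.194% passed. Day 14 against day 7 gave 0.0187% after sham surgery and 0.0% after PNX, and the difference between the day 14 and day 7 effects gave 0.0%. At day 7, 2 chains were higher and 7 lower after PNX at an unadjusted p under 0.05, beside 4.66% and 8.07% of all genes. At day 14, 9 were higher and 3 lower, beside 3.19% and 3.63%. Averaged over the days, 7 were higher and 3 lower, beside 3.92% and 6.37%. DESeq2 called 3 chains at day 7 (beside 2.85% of all genes), 0 at day 14 (0.681%) and 4 averaged over the days (1.9%). Limma voom called 1 at day 7 (5.16% of all genes), 0 at day 14 (0.0%) and 0 averaged over the days (0.0437%).

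Col3a1, Col1a2 and Col5a2 had higher fitted values after PNX at both days, under all 23 alternative settings, without passing the test. Col3a1 (chr1:45311538-45349706) had 4735, 4767 and 5249 CPM in PNX day 7 libraries, against 2145, 3762 and 4655 CPM in sham day 7 libraries. The groups did not overlap, and the log2 fold change was 0.48 ± 0.39 (SE; adjusted p = 0.689, edgeR). At day 14 Col3a1 had 4595, 4604 and 3678 CPM after PNX, against 1242 and 2565 CPM after sham surgery, a log2 fold change of 1.17 ± 0.45 (adjusted p = 0.615).

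Col1a2 (chr6:4504814-4541544), the partner of Col1a1 in type I collagen, had 3240, 3766 and 3238 CPM in PNX day 7 libraries, against 1699, 2627 and 2872 CPM in sham day 7 libraries. At day 14 it had 3304, 3385 and 2201 CPM after PNX, against 889 and 2085 CPM after sham surgery. PNX libraries lay above sham libraries at each day. The log2 fold changes were 0.51 ± 0.39 at day 7 (adjusted p = 0.664) and 0.99 ± 0.45 at day 14 (adjusted p = 0.706).

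Col5a2 (chr1:45374321-45503282) had nearly the same level in each PNX day 7 library. It had 486, 492 and 486 CPM in PNX day 7 libraries, against 233, 279 and 381 CPM in sham day 7 libraries. The day 14 values were 447, 499 and 375 CPM after PNX, against 120 and 267 CPM after sham surgery. All 6 PNX libraries held 375 CPM or more, and 1 of the 5 sham libraries did. The log2 fold changes were 0.71 ± 0.35 at day 7 (adjusted p = 0.412) and 1.18 ± 0.40 at day 14 (adjusted p = 0.521). Averaged over the days it was 0.95 ± 0.27 (adjusted p = 0.158), which DESeq2 called.

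Col1a1 (chr11:94936224-94953042) departed from its partners at day 7. It had 2295, 2572 and 1872 CPM in PNX day 7 libraries, against 944, 4752 and 5690 CPM in sham day 7 libraries, so PNX lay inside the sham range. The log2 fold change was -0.75 ± 0.52 (adjusted p = 0.622). Leaving out the third sham library of that day gave -0.34, and leaving out the first gave -1.22. At day 14 Col1a1 had 2020, 1832 and 1345 CPM after PNX, against 417 and 1104 CPM after sham surgery, a log2 fold change of 1.19 ± 0.60 (adjusted p = 0.747).

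**Figure D2:**
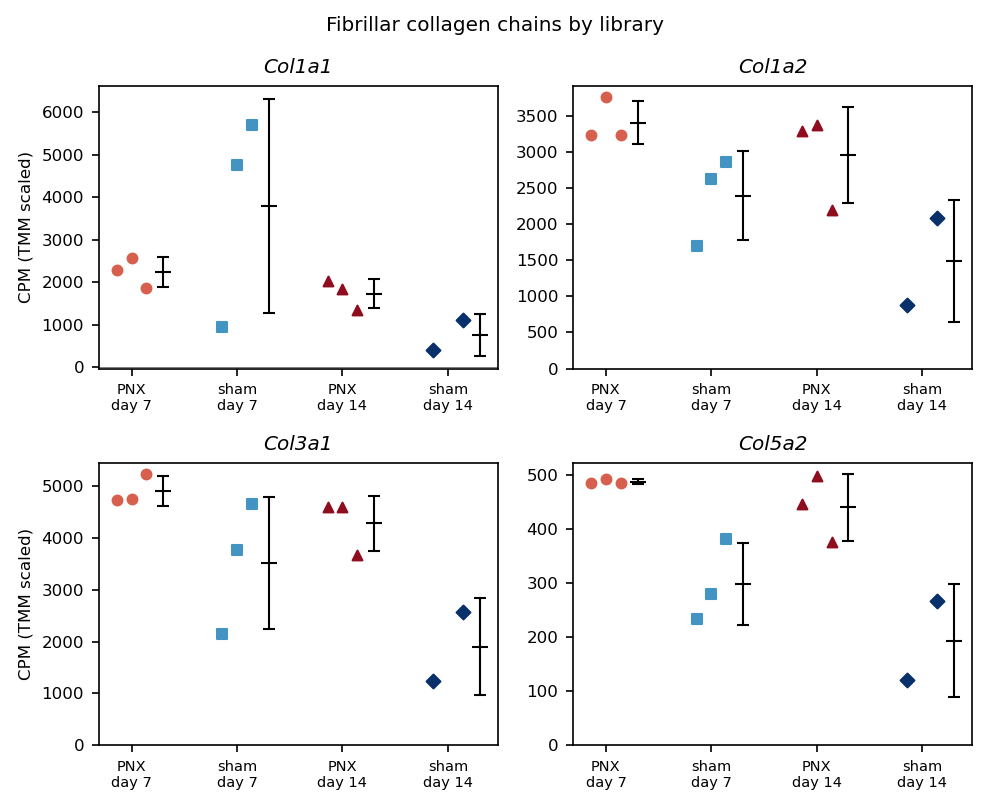
CPM of Col1a1, Col1a2, Col3a1 and Col5a2 in each library (coloured points), with the group mean and SD in black, PNX left of sham at each day. Col5a2 is at 375 CPM or more in every PNX library, and Col1a1 in sham day 7 splits into 1 low and 2 high libraries.

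The ratio of Col1a1 to Col1a2 counts, which scaling does not touch, was 0.708, 0.683 and 0.578 in PNX day 7 libraries, against 0.556, 1.81 and 1.98 in sham day 7 libraries. At day 14 it was 0.611, 0.541 and 0.611 after PNX, against 0.470 and 0.529 after sham surgery. Replicates 2 and 3 of sham day 7 thus stood apart from the other 9 libraries. They also had the highest rank correlations between GC content and expression, 0.426 and 0.228, and the Col1a1 transcript is richer in GC (58.9%) than that of Col1a2 (55.7%). PNX day 7 replicate 2, with a correlation of 0.194, had a ratio of 0.683. Col3a1 over Col1a2 ran between 1.23 and 1.67 in all libraries, without such a split. The Col3a1 transcript has 52.5% GC, less than that of Col1a2. The part of GC content in the split was not tested.

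**Figure D3:**
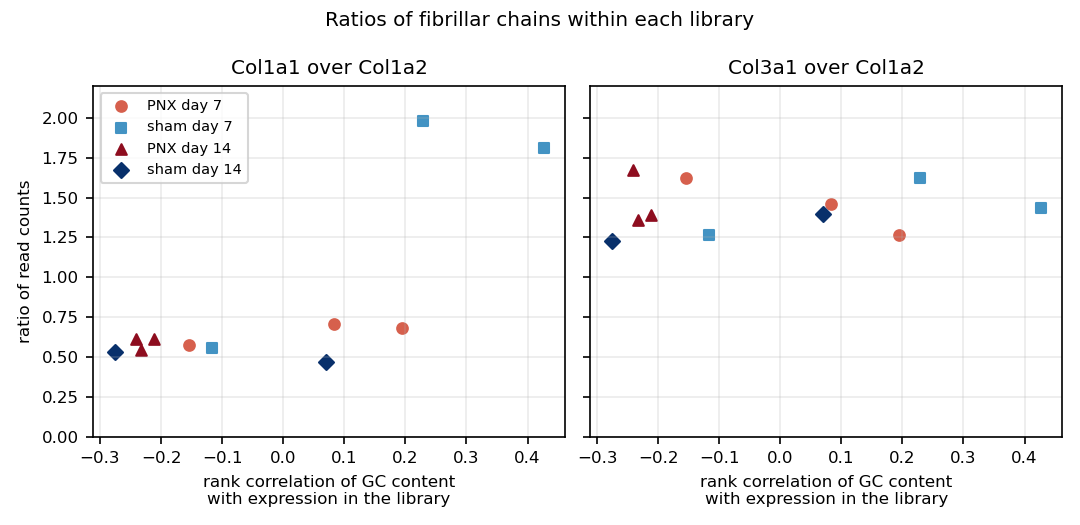
Count ratios of Col1a1 over Col1a2 (left panel) and Col3a1 over Col1a2 (right panel) in each library, against the rank correlation of GC content with expression there. In the left panel sham day 7 replicates 2 and 3 lie at 1.81 and 1.98 while the highest of the other libraries is at 0.708.

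Among minor fibrillar chains, Col24a1 (chr3:145292472-145552011) had the smallest p of all chains at day 7. Its product is known from developing bone and cornea. It had 3.56, 9.10 and 14.6 CPM in PNX day 7 libraries, against 0.842, 1.499 and 0.579 CPM in sham day 7 libraries, from 3 to 114 reads per library over the 11 libraries. The groups did not overlap, and the log2 fold change was 3.24 ± 0.79 (adjusted p = 0.0981), which DESeq2 called. At day 14 it had 3.72, 4.08 and 3.37 CPM after PNX, against 3.67 and 0.366 CPM after sham surgery, and those groups overlapped.

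At day 7 the groups did not overlap for 5 chains higher after PNX (Col12a1, Col1a2, Col24a1, Col3a1 and Col5a2), beside 9.92% of all genes, and for 3 chains lower (Col14a1, Col17a1 and Col6a1), beside 9.62%. Across the tested chains 20 were higher and 22 lower at day 7, with a median log2 fold change of -0.08, against 0.03 over all genes. Of the fibrillar chains 7 of 11 were higher, of the type IV chains 2 of 6, of the FACIT chains 2 of 8 and of the others 9 of 17. With total counts in place of TMM, which moved the median of all genes by 0.18, 23 of the 42 were higher. Without PNX day 7 replicate 2, 14 were higher, with a median of -0.27, and so were 8 in place of 13 of the 25 chains with a mean of 10 CPM or more.

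The chains lower after PNX at day 7 included matrix fibroblast markers of the mouse lung. Col13a1 (chr10:61838236-61979108), a transmembrane collagen, had 24.1, 27.8 and 21.3 CPM in PNX day 7 libraries, against 27.2, 76.0 and 80.5 CPM in sham day 7 libraries. The log2 fold change was -1.33 ± 0.37 (adjusted p = 0.134), called by DESeq2 and by limma voom. It was -1.68 and past the threshold without sham day 7 replicate 1. At day 14 Col13a1 had 24.9, 37.3 and 26.03 CPM after PNX, against 53.0 and 46.9 CPM after sham surgery (log2 fold change -0.76 ± 0.41, adjusted p = 0.747). The summed level of 10 other alveolar fibroblast markers also lay lower in PNX day 7, at 2754 to 3463 CPM, against 5127 to 6800 CPM in sham day 7, and its part in the Col13a1 values was not tested.

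Col17a1, the transmembrane collagen of epithelial hemidesmosomes, had 3.22, 1.38 and 2.18 CPM in PNX day 7 libraries, against 3.79, 10.7 and 15.9 CPM in sham day 7 libraries. Its log2 fold change was -2.13 ± 0.66 (adjusted p = 0.163), called by DESeq2. Summed epithelial markers were 963 to 2579 CPM in PNX day 7 and 214 to 13400 CPM in sham day 7. The highest Col17a1 value was in sham day 7 replicate 3, the library lowest in epithelial markers. The part of epithelial cells in the Col17a1 values was not tested.

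FACIT chains had values in both directions. Col14a1, which marks another matrix fibroblast population, had 174, 229 and 196 CPM in PNX day 7 libraries, against 300, 251 and 737 CPM in sham day 7 libraries (log2 fold change -1.10 ± 0.44, adjusted p = 0.290). Summed adventitial fibroblast markers were 7757 to 15670 CPM in PNX day 7, against 9460 to 27117 CPM in sham day 7, and their part was not tested. Col12a1, a FACIT chain of tendon and of stressed tissue, had 35.8, 62.3 and 37.1 CPM in PNX day 7 libraries, against 27.1, 25.5 and 32.4 CPM in sham day 7 libraries (log2 fold change 0.67 ± 0.31, adjusted p = 0.388). Its PNX values were higher at day 14 too, at 41.7, 51.0 and 33.2 CPM, against 20.01 and 22.1 CPM after sham surgery (log2 fold change 0.99 ± 0.36, adjusted p = 0.594).

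Col16a1, a FACIT chain of fibrils and of basement membrane edges, had 28.7, 64.5 and 25.3 CPM in PNX day 7 libraries, against 19.2, 64.9 and 62.4 CPM in sham day 7 libraries, and the ranges overlapped (log2 fold change -0.31 ± 0.43, adjusted p = 0.819). The day 14 values were 29.4, 43.4 and 29.6 CPM after PNX, against 24.3 and 21.5 CPM after sham surgery (log2 fold change 0.58 ± 0.50, adjusted p = 0.837). Col19a1, a scarce FACIT chain, had its highest value, 12.7 CPM, in sham day 14 replicate 1, against 1.26 to 6.06 CPM elsewhere.

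At day 14 values after PNX were higher for 27 of the 42 tested chains, with a median log2 fold change of 0.58, against -0.07 over all genes. Fibrillar chains were higher in 8 of 11 (median 0.85), type IV chains in 6 of 6 (median 0.93), FACIT chains in 3 of 8 and others in 10 of 17. Among the 25 chains with a mean of 10 CPM or more, 23 were higher, beside 58.1% of all genes of that level. That count stayed between 22 and 24 over 23 alternative settings, with 22 on total counts and 23 with a GC offset. The groups did not overlap for 18 chains higher after PNX, beside 9.57% of all genes. All 18 had a mean of 10 CPM or more, a level at which 1219 of 9250 tested genes were apart and higher. Apart and lower were 5 chains (Col10a1, Col11a2, Col13a1, Col17a1 and Col2a1), beside 8.2% of all genes. On total counts, which lowered the median of all genes by 0.19, 13 chains were apart and higher, beside 6.85%. The median over the 25 chains was 0.85 with both sham libraries, 0.61 when the first was left out and 1.31 when the second was.

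Marker sums of several cell types were apart between the same groups. Mesothelial markers summed to 1927 to 2583 CPM in PNX day 14, against 613 to 1828 CPM in sham day 14, with 4 of 7 genes apart and higher. These were Wt1, Krt19, Bnc1 and Upk1b, the last by a margin of 719.7 to 718.0 CPM. Msln, Upk3b and Lrrn4 overlapped. Smooth muscle markers summed to 2468 to 3301 CPM after PNX, against 1538 to 2042 CPM after sham surgery, with 3 of 8 apart and higher. Adventitial fibroblast markers summed to 15583 to 20686 CPM after PNX, against 9552 to 14585 CPM after sham surgery. Of these 10 markers 2 were apart and higher (Dcn and Serpinf1) and 1 lower (Ccl11). The largest part of the sum was Dcn, with 12200, 12058 and 9738 CPM after PNX, against 4968 and 7897 CPM after sham surgery. The other adventitial markers, Pi16 and Clec3b among them, overlapped. Mesothelial, smooth muscle and adventitial cells are known producers of fibrillar and basement membrane collagens. The chondrocyte sum was higher as well, at 95.5 to 150 CPM, against 67.7 to 75.2 CPM. Of its 8 genes 2 were apart and higher (Sox9 and Sox5) and 1 was apart and lower (Matn3), while Acan overlapped. Alveolar fibroblast markers were lower, at 3004 to 5787 CPM after PNX, against 6292 to 9034 CPM after sham surgery. Of those genes 6 of 10 were apart and lower. Haematopoietic markers were lower too, at 331 to 775 CPM, against 823 to 946 CPM, with 12 of 17 genes apart and lower. Endothelial sums overlapped, at 371 to 643 CPM after PNX, against 369 to 519 CPM after sham surgery, with 0 of 10 genes apart. Among all genes 9.57% were apart and higher and 8.2% apart and lower. The part of these cell types in the collagen values was not tested.

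**Figure D4:**
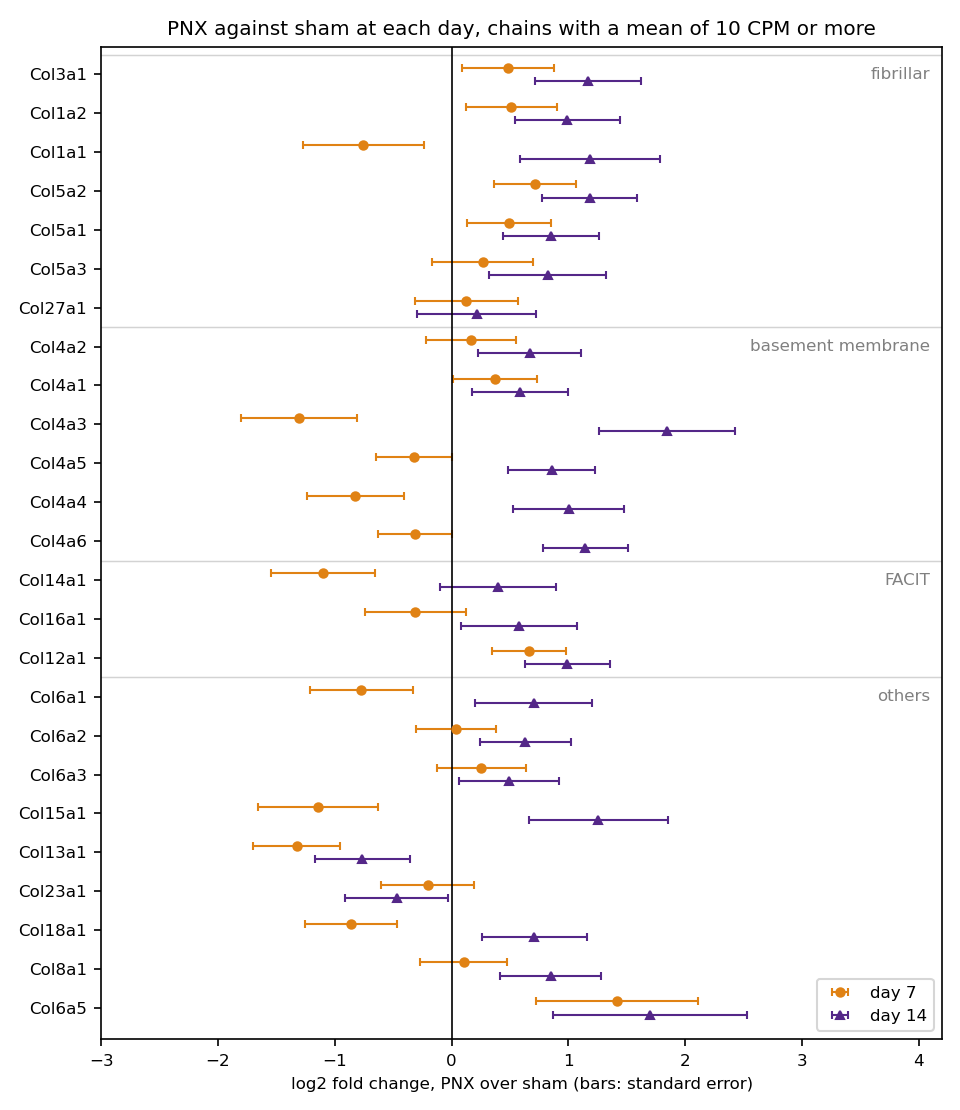
Log2 fold change of PNX over sham at day 7 (orange circles) and day 14 (purple triangles) with standard errors, for the 25 chains with a mean of 10 CPM or more, by class. At day 14, 23 of 25 are right of 0, whereas 13 are at day 7.

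All 6 type IV chains had higher fitted values after PNX at day 14, under every alternative setting, and lower ones for 4 of 6 at day 7. Col4a1 (chr8:11198423-11312826) and Col4a2 (chr8:11312805-11449287) encode the chains found in every basement membrane. Col4a1 had 168, 126 and 121 CPM in PNX day 14 libraries, against 89.4 and 93.8 CPM in sham day 14 libraries (log2 fold change 0.59 ± 0.41, adjusted p = 0.809). Col4a2 had 155, 114 and 123 CPM after PNX, against 62.0 and 102 CPM after sham surgery (log2 fold change 0.67 ± 0.44, adjusted p = 0.799). Both were apart at day 14 on TMM and overlapped on total counts. Col4a1 over Col4a2 counts ran between 0.848 and 1.44.

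Col4a3 (chr1:82586921-82722059) had the smallest p of all chains at day 14. With Col4a4 (chr1:82448423-82586849) and Col4a5 it makes the network of kidney and alveolar basement membranes, and in the mouse lung these chains are also known from alveolar type I epithelium. Col4a3 had 172, 416 and 323 CPM in PNX day 14 libraries, against 55.3 and 113 CPM in sham day 14 libraries (log2 fold change 1.84 ± 0.58, adjusted p = 0.468). At day 7 the fitted value was lower after PNX, but the groups overlapped. There it had 45.3, 47.1 and 62.1 CPM in PNX libraries, against 235, 44.3 and 102 CPM in sham libraries (log2 fold change -1.30 ± 0.50, adjusted p = 0.263, and -0.51 without sham day 7 replicate 1). The difference between the day 14 and the day 7 effect was 3.14 ± 0.77 on the log2 scale (adjusted p = 0.283). DESeq2 called it, beside 0.637% of all genes, and edgeR did so without sham day 7 replicate 2, with the same sign under all alternatives run.

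Between days after PNX, Col4a3 was 172 to 416 CPM at day 14 and 45.3 to 62.1 CPM at day 7, a log2 difference of 2.56 ± 0.52 (adjusted p = 0.186 by edgeR). DESeq2 called it, beside 0.362% of all genes, and so did limma voom, beside 0.693%. Col4a4 had 107, 145 and 139 CPM in PNX day 14 libraries, against 44.2, 46.9 and 53.4 CPM in PNX day 7 libraries (log2 difference 1.43 ± 0.42, adjusted p = 0.513), past the threshold by limma voom. Col4a5 and Col4a6, a head-to-head pair on the X chromosome, were also apart, with log2 differences of 0.69 ± 0.33 and 0.38 ± 0.31 (adjusted p = 0.729 and 0.777). In all, 4 chains were apart and higher, beside 9.07% of all genes, and 3 apart and lower (Col10a1, Col3a1 and Col6a6), beside 9.06%. On total counts 3 were apart and higher, beside 3.79%, and 9 lower, beside 17.6%, and Col4a6 was no longer apart. No chain passed the threshold by edgeR, and 3 were higher and 4 lower at an unadjusted p under 0.05, beside 3.72% and 3.13%.

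The X-linked pair was higher after PNX at day 14 as well, without passing the test. Col4a5 (chrX:141475385-141689234), a chain of the kidney and alveolar network, had 122, 123 and 94.9 CPM in PNX day 14 libraries, against 60.3 and 64.7 CPM in sham day 14 libraries (log2 fold change 0.86 ± 0.37, adjusted p = 0.696). At day 7 it had 76.8, 62.6 and 72.1 CPM after PNX, against 60.7, 73.4 and 131 CPM after sham surgery (log2 fold change -0.32 ± 0.32, adjusted p = 0.750). Col4a6 (chrX:141165403-141474076), a chain of smooth muscle and epithelial basement membranes, had 30.5, 28.4 and 33.2 CPM in PNX day 14 libraries, against 10.3 and 16.9 CPM in sham day 14 libraries (log2 fold change 1.15 ± 0.37, adjusted p = 0.473). Both chains were apart at day 14 and overlapped at day 7. Col4a5 over Col4a6 counts ran between 2.43 and 5.84. Col4a3 over Col4a4 counts ran between 1.01 and 2.87 and were highest in PNX day 14 replicate 2.

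Summed epithelial markers were higher at PNX day 14 than at PNX day 7, as Col4a3 and Col4a4 were. The sum, mostly Sftpc, a type II epithelial gene, was 7954 to 17968 CPM in PNX day 14 libraries, against 963 to 2579 CPM in PNX day 7 libraries, while Ager, the type I epithelial marker, was 226, 674 and 212 CPM at PNX day 14, against 249, 352 and 132 CPM at PNX day 7. Ager was highest, at 702 CPM, in sham day 14 replicate 1, where Col4a3 had 55.3 CPM. In sham day 7 replicate 2 the epithelial sum was 13400 CPM and Col4a3 was at its lowest, 44.3 CPM. Of the 12 markers 4 were apart and higher at PNX day 14 (Epcam, Sftpc, Sftpa1 and Lamp3) and 1 was apart and lower (Krt8). Among all genes 9.07% were apart and higher and 9.06% apart and lower. No marker of the 12 was at 0 in all libraries. Smooth muscle markers were apart and higher in 4 of 8 genes and adventitial fibroblast markers in 2 of 10, with none lower. The smooth muscle sum was 2468 to 3301 CPM at PNX day 14, against 1963 to 2343 CPM at PNX day 7. The part of epithelial RNA and of these other cell types in the Col4a3 and other type IV values was not tested.

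**Figure D5:**
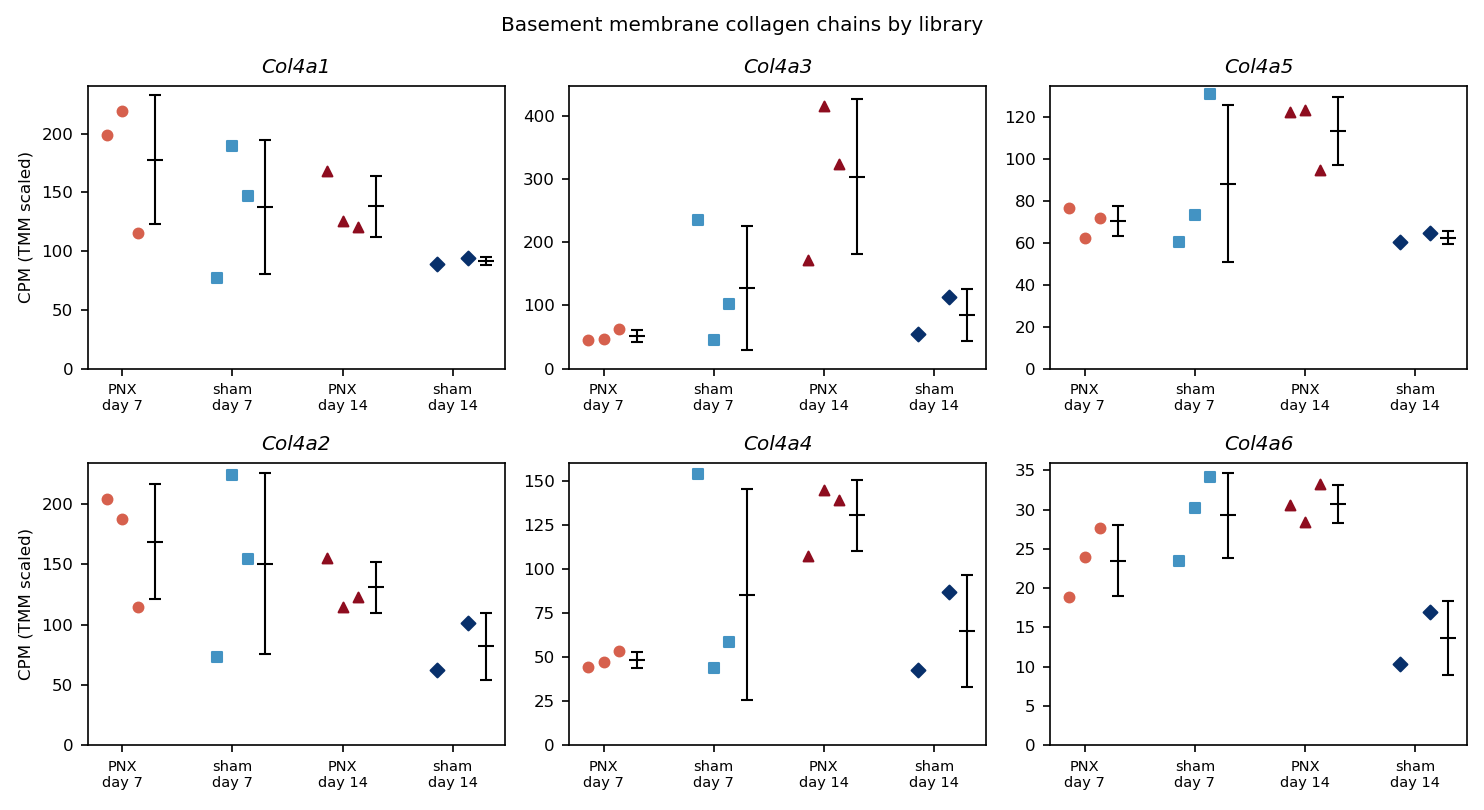
CPM of the 6 type IV collagen chains in each library (coloured points), with group means and SD in black, PNX left of sham at each day. Col4a3 and Col4a4 lie higher in PNX day 14 than in PNX day 7. On this TMM scale all 6 chains are lower in sham day 14 than in PNX day 14, while on total counts Col4a1 and Col4a2 overlap.

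The chains of the beaded filaments, Col6a1, Col6a2 and Col6a3, had no adjusted p under 0.05. Col6a1 had 667, 646 and 597 CPM in PNX day 7 libraries, against 674, 871 and 1726 CPM in sham day 7 libraries (log2 fold change -0.77 ± 0.44, adjusted p = 0.513). Those groups did not overlap on TMM, by a margin of 667 to 674 CPM, and did on total counts. At day 14 Col6a2 had 467, 400 and 464 CPM after PNX, against 208 and 364 CPM after sham surgery (log2 fold change 0.63 ± 0.39, adjusted p = 0.788). Col15a1 and Col18a1, the multiplexins that carry endostatin-like domains, were both lower after PNX at day 7 (log2 fold changes -1.14 ± 0.51 and -0.86 ± 0.39) and both higher at day 14 (1.26 ± 0.59 and 0.71 ± 0.45), with no adjusted p under 0.05. Col15a1 reached 317 CPM in sham day 7 replicate 3, against 33.3 to 99.9 CPM in all other libraries.

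Col6a3, the longest chain of the beaded filament, had 351, 502 and 261 CPM in PNX day 7 libraries, against 223, 377 and 335 CPM in sham day 7 libraries. At day 14 it had 392, 334 and 242 CPM after PNX, against 142 and 316 CPM after sham surgery. The ranges overlapped at both days (log2 fold changes 0.26 ± 0.38 and 0.49 ± 0.43, adjusted p = 0.831 and 0.837). Col6a1 over Col6a2 counts varied between 0.846 and 2.98 across libraries, with the highest in sham day 7 replicate 3, while Col6a3 over Col6a2 stayed between 0.522 and 0.870.

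The 3 chains lower after PNX at day 14 at an unadjusted p under 0.05 were scarce. Col10a1, known from hypertrophic cartilage, had 0.372, 0.157 and 0.449 CPM in PNX day 14 libraries, against 3.67 and 2.07 CPM in sham day 14 libraries, from 1 to 17 reads per library over the 11 libraries (log2 fold change -3.07 ± 1.04, adjusted p = 0.521). Col6a6, a variant chain of the beaded filament, had 1.68, 1.57 and 0.449 CPM after PNX, against 6.67 and 1.58 CPM after sham surgery (log2 fold change -1.65 ± 0.76, adjusted p = 0.706). Col2a1, the main fibril chain of cartilage, had 1.12, 0.157 and 0.224 CPM after PNX, against 1.67 and 4.02 CPM after sham surgery (log2 fold change -2.51 ± 1.08, adjusted p = 0.691). Col10a1 and Col2a1 were apart, and Col6a6 overlapped. The higher sham value was in replicate 1 for Col10a1 and Col6a6, where receptor genes averaged 1.10 CPM, and in replicate 2 for Col2a1, where they averaged 0.0624 CPM.

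Cartilage collagens were scarce. Among them Col10a1 was highest in PNX day 7 replicate 2, at 3.86 CPM. The other 6 (Col2a1, Col9a1, Col9a2, Col9a3, Col11a1 and Col11a2) were highest in sham day 7 replicate 3, where Col2a1 had 16.8 CPM. The chondrocyte markers Acan and Sox9 were highest there too, with 7.53 and 83.0 CPM, and 3 of 8 such markers in all. Of all 44 chains 19 had a mean under 10 CPM, and 9 of these were highest in 1 of the 3 libraries of highest background, while 8 were highest in sham day 7 replicate 3, the library of lowest background. Of the 18 that were tested 9 and 7 were so, beside 60.2% and 10.8% of all tested genes with a mean under 10 CPM. The part of background in these low values was not tested.

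Between the sham groups, values were lower at day 14 for 35 of 42 chains (median log2 difference -0.65, against 0.05 over all genes), and no chain was apart and higher, beside 12.4% of all genes, while 9 were apart and lower, beside 11.8%. That median was -1.17 without sham day 14 replicate 2 and -0.31 with a GC offset and replicate block. At an unadjusted p under 0.05, 7 were lower, beside 7.94%, and none higher, beside 6.32%. Of the 25 abundant chains 24 were lower, and 1 was higher, as were 2 on total counts and 3 with a GC offset. Col1a1 had 417 and 1104 CPM in sham day 14 libraries, against 944, 4752 and 5690 CPM in sham day 7 libraries (log2 difference -2.32 ± 0.63, adjusted p = 0.116), called by DESeq2 with 4 other chains, beside 4.18% of all genes, and by edgeR when either the first sham library of day 7 or the second of day 14 was left out. The same 2 sham day 14 libraries enter this comparison and that of PNX against sham at day 14, so the 2 results are not independent.

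Between days after PNX the direction depended on the scaling. Of the 25 abundant chains 11 were higher and 14 lower at day 14, but 24 were higher with a GC offset and 4 on total counts. The median of all genes shifted by 0.22 with the GC offset and by -0.29 on total counts. The fibrillar chains were all lower at day 14 than at day 7 after PNX on TMM, while 7 of 11 were higher with a GC offset. For the difference between the 2 effects, 9 chains were higher and 1 lower at an unadjusted p under 0.05, beside 4.16% and 4.6% of all genes.

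Enzymes and receptors that work on collagen were read out from a list of 51 genes, of which 49 were tested. None passed in any of the 6 comparisons by edgeR. At day 7, 5 were higher and 7 lower after PNX at an unadjusted p under 0.05, beside 4.66% and 8.07% of all genes. At day 14, 3 were higher and 4 lower, beside 3.19% and 3.63%. Bmp1, the protease that removes the carboxyl propeptide of fibrillar procollagens, had 128, 133 and 98.1 CPM in PNX day 14 libraries, against 33.3 and 44.5 CPM in sham day 14 libraries (log2 fold change 1.61 ± 0.37, adjusted p = 0.128). DESeq2 called it. Plod2, which hydroxylates telopeptide lysines, had 96.5, 133 and 144 CPM in PNX day 7 libraries, against 64.0, 57.0 and 68.5 CPM in sham day 7 libraries (log2 fold change 0.98 ± 0.30, adjusted p = 0.153), also called by DESeq2.

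Lower after PNX at day 7 were Colgalt2, which adds galactose to hydroxylysine, Loxl1, a cross-linking oxidase, and Pcolce2, an enhancer of propeptide removal. Colgalt2 had 4.92, 6.62 and 6.54 CPM in PNX libraries, against 13.3, 16.7 and 26.7 CPM in sham libraries (log2 fold change -1.65 ± 0.40, adjusted p = 0.0984), and was called by DESeq2 and limma voom. Loxl1 had 242, 357 and 211 CPM in PNX libraries, against 217, 1168 and 2166 CPM in sham libraries (log2 fold change -2.13 ± 0.56, adjusted p = 0.116). Its 2 high sham libraries are those with the high Col1a1 ratio. Pcolce2 had 237, 242 and 222 CPM in PNX libraries, against 547, 449 and 548 CPM in sham libraries (log2 fold change -1.14 ± 0.31, adjusted p = 0.123), and these groups did not overlap.

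By role, the 15 chain modifying enzymes were higher in 6 and lower in 9 after PNX at day 7, and higher in 12 of 15 at day 14. Folding and secretion genes were higher in 2 of 7 at day 7 and in 4 of 7 at day 14, and propeptide removal genes in 4 of 7 at each day. Receptors were higher in 3 of 9 at day 7 and in 6 of 9 at day 14, and degradation genes in 5 of 6 and in 4 of 6. Among all genes 51.7% were higher at day 7 and 45.1% at day 14. Among all genes with a mean of 10 CPM or more the shares were 43.9% and 58.1%, so they rose between the days. The 5 cross-linking oxidases were higher in 2 of 5 at day 7 and in 5 of 5 at day 14. Lox, the founding member, had 394, 338 and 380 CPM in PNX day 7 libraries, against 211, 183 and 279 CPM in sham day 7 libraries (log2 fold change 0.73 ± 0.34, adjusted p = 0.375). Its day 14 values were 368, 282 and 316 CPM after PNX, against 131 and 268 CPM after sham surgery (log2 fold change 0.68 ± 0.38, adjusted p = 0.756). The groups were thus apart at both days on TMM, at day 14 by a margin of 282 to 268 CPM. On total counts the day 14 groups overlapped.

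Adamts3, which removes amino propeptides, had 26.4, 50.3 and 45.1 CPM in PNX day 14 libraries, against 7.34 and 20.1 CPM in sham day 14 libraries (log2 fold change 1.53 ± 0.49, adjusted p = 0.473). Lair1, an inhibitory collagen receptor of leukocytes, had 0.372, 0.157 and 0.673 CPM in PNX day 14 libraries, against 3.67 and 3.41 CPM in sham day 14 libraries (log2 fold change -3.12 ± 1.12, adjusted p = 0.567). Summed haematopoietic markers were 331 to 775 CPM in PNX day 14, against 823 to 946 CPM in sham day 14, and their part was not tested. Serpinh1, the collagen chaperone, was abundant at 713 to 6509 CPM and overlapped between PNX and sham at each day.

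Between the sham groups, 1 gene of the list was higher and 13 lower at day 14 at an unadjusted p under 0.05, beside 6.32% and 7.94% of all genes, and none passed the threshold by edgeR. Ddr1, a collagen-binding receptor kinase, had 10.7 and 10.4 CPM in sham day 14 libraries, against 17.4, 46.5 and 54.2 CPM in sham day 7 libraries (log2 difference -1.90 ± 0.46, adjusted p = 0.0975).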

How the data were processed

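Read counts per gene were deposited by the authors for 11 libraries of sorted mouse lung mesenchymal cells, made from mm10, with bcl2fastq 2.20.0.422 named per the submitters' processing notes. Column-purified RNA and a low-input library kit were used, per the labels' protocols. The aligner, counter, annotation and strand setting are not given in the sources used here, so reads of a chain and of an overlapping gene on the other strand cannot be told apart. The deposited counts are unscaled whole numbers, and all 11 columns were used.

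Groups came from the labels. The tests used edgeR 4.0.16 under R 4.3.3, on the 16011 of 24411 genes that filterByExpr kept when given the groups. After TMM scaling, the 4 groups were modelled together by robust quasi-likelihood, leaving 7 residual degrees of freedom, and 6 contrasts were tested by F. Benjamini-Hochberg adjustment ran over every tested gene, at a threshold of 0.05. Adjusted p is from edgeR unless another tool is named. The standard error is the absolute log2 fold change divided by the square root of F. CPM values carry TMM factors, except receptor gene counts and the 1 CPM filter, which use total counts. Levels per kb use the longest basic protein-coding transcript of GENCODE M21 (mm10), which also gave locations and GC content; 98.5% of symbols matched. DESeq2 1.42.0 and limma 3.58.1 voom were alternatives, as were other scalings, filters, covariates and left-out libraries. The fits were tested on simulated data with known changes.

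Collagen members, classes, the pathway and marker lists and the rule for named genes (the 4 chains of highest mean CPM in each class and the 3 of smallest p in each direction of a comparison) were chosen with earlier results of these data known. The split at a mean of 10 CPM was chosen after seeing the values. No set test was run. Count precision covers counting error only, since no molecular identifiers are stated.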

Additional observations from a re-analysis of the deposited data

How the results depend on the processing

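The edgeR count of chains past the threshold was 0 in each of the 6 comparisons, and at day 14 it was 0 under every alternative run. DESeq2 called 3 chains at day 7, 4 in the mean of both days, 1 in the difference of effects, 1 between days after PNX and 5 between days after sham. Limma voom called 1 at day 7 and 2 between days after PNX, and without a filter on low counts 1 was called in each of these. Fitting only the groups compared called 2 between days after PNX. A background covariate called 1 and leaving out the 3 libraries of highest background called 1 in the mean of both days. Leaving out 1 library at a time gave 0 to 2 chains at day 7 (2 without the first sham library of day 7, 1 without either of day 14), 0 to 0 at day 14, 0 to 1 in the mean of both days (1 without the first sham library of either day), 0 to 1 in the difference of effects (1 without the second sham library of either day), 0 to 0 between days after PNX and 0 to 3 between days after sham (3 without the first of day 7 or the second of day 14). The cause of these moves was not tested.

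Among the chains named by rule in each comparison, signs changed for 2, both low. Other chains changed sign between days after PNX, where 24 of the 25 abundant chains were higher with a GC offset and 11 without it. Col19a1 gave 0.048 in the difference of effects and -0.28 between days after sham without the 3 libraries of highest background, and -0.51 between days after sham without sham day 14 replicate 1 (2.30 without replicate 2). Col24a1 gave 0.035 in the difference of effects without sham day 14 replicate 1 (-3.04 without replicate 2), and between days after sham -0.038 by limma voom, -0.97 without the 3 libraries of highest background and -1.31 without sham day 14 replicate 1 (1.77 without replicate 2). Of the other values of named genes and counts of higher chains, 1949 kept sign and side of the threshold (or stayed within 1.5 times), 63 passed the threshold and 20 counts moved further, mostly between days.

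Same-numbered PNX and sham libraries deviated from their group means with correlations of -0.11, 0.52 and 0.35 at day 7 and 0.14 and 0.22 at day 14, so numbers were not taken as pairs. With the replicate block, the count was 0 in every comparison. Depth of 2539628 counts in sham day 14 replicate 1 and 2 libraries in that group limit what day 14 can show, and chains near 1 CPM rest on few reads.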
